A study of Mus musculus with 10 samples.

Results

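The 10 genes described here, Hif1a, Epas1, Egln1, Egln3, Vegfa, Epo, Adm, Pdk1, Pfkfb3 and Ndrg1, belong to the oxygen-sensing system of cells and to the targets of its hypoxia-inducible factors. They were taken by name from the authors' deposited table of transcripts, which holds 66 rows for them among 85107 rows in all. Each gene was represented by its row with the highest mean level, as was each of the 27876 genes that could be named from mouse GENCODE vM21. The study gave wild-type mice quinolinic acid, a breakdown product of tryptophan, at 0.5 g/L in the drinking water, and set them against wild-type mice given vehicle. RNA came from whole kidney tissue of 5 mice per group, picked by the submitters as representative and killed on day 14, and all 10 libraries carry 1 batch label. The labels give no age, sex or strain, and are silent on any induction of kidney injury.

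Only a finished comparison was analysed here, so no value per mouse, no spread between mice and no depth per library can be given. For each transcript, the authors' deposited table gives the log2 fold change, the mean level over the libraries as log2 CPM (read counts scaled to library size), a likelihood ratio, and p-values before and after adjustment. The header names the contrast as vehicle versus quinolinic acid and does not name the group on top of the ratio. Signs are therefore printed as deposited, and no sign below is to be read as more or less RNA after quinolinic acid. An approximate 95% interval was computed for each log2 fold change from the likelihood ratio, and is printed for rows of at least 1 CPM. A gene was called where the deposited adjusted p was under 0.05.

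Cells sense oxygen through prolyl hydroxylases, which the Egln genes encode. In the presence of oxygen these enzymes hydroxylate the alpha subunits of the hypoxia-inducible factors, and the von Hippel-Lindau protein then marks the subunits for degradation. When oxygen falls, the subunits accumulate, pair with the partner encoded by Arnt and switch on genes of glucose use, vessel growth and red cell production. The kidney is the main adult source of erythropoietin, made by interstitial fibroblast-like cells. Control of the factors is largely at the level of protein, which RNA does not measure.

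None of the 10 genes was called. Adjusted p-values of the 10 genes started at 0.781 in the authors' deposited table, in which 0.0215% of all genes and 0.0141% of all rows were called. At an unadjusted p under 0.05 the table held 1 of the 10 genes, Pdk1, against 5.12% of all genes. Its sign was positive. Of all genes 3.58% had both a positive sign and an unadjusted p under 0.05, as did 3.20% of genes of at least 1 CPM. Positive signs belonged to 8 members and negative signs to 2, and their median log2 fold change was 0.08 by the authors' deposited table. Over all genes the median was 0.04, and 57.9% were positive in sign. Among members of at least 1 CPM, 8 of 9 were positive and the median was 0.09. Among all 13115 genes of at least 1 CPM, 71.8% were positive and the median was 0.08. Of the 9 members of at least 1 CPM, 8 had an interval that included 0.

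The intervals give approximate limits on each difference, gene by gene. They make no allowance for several intervals or for the trend with transcript length described below. For the 9 members of at least 1 CPM the half-width of the interval ran from 0.22 to 0.33 on the log2 scale, and the median over all genes of at least 1 CPM was 0.28. The largest fold difference inside any of these 9 intervals was 1.46, for Ndrg1, and the narrowest bound was 1.21, for Pfkfb3. Whole kidney mixes many cell types, so a difference in the number of cells of a type and in RNA per cell cannot be told apart.

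**Figure D1:**
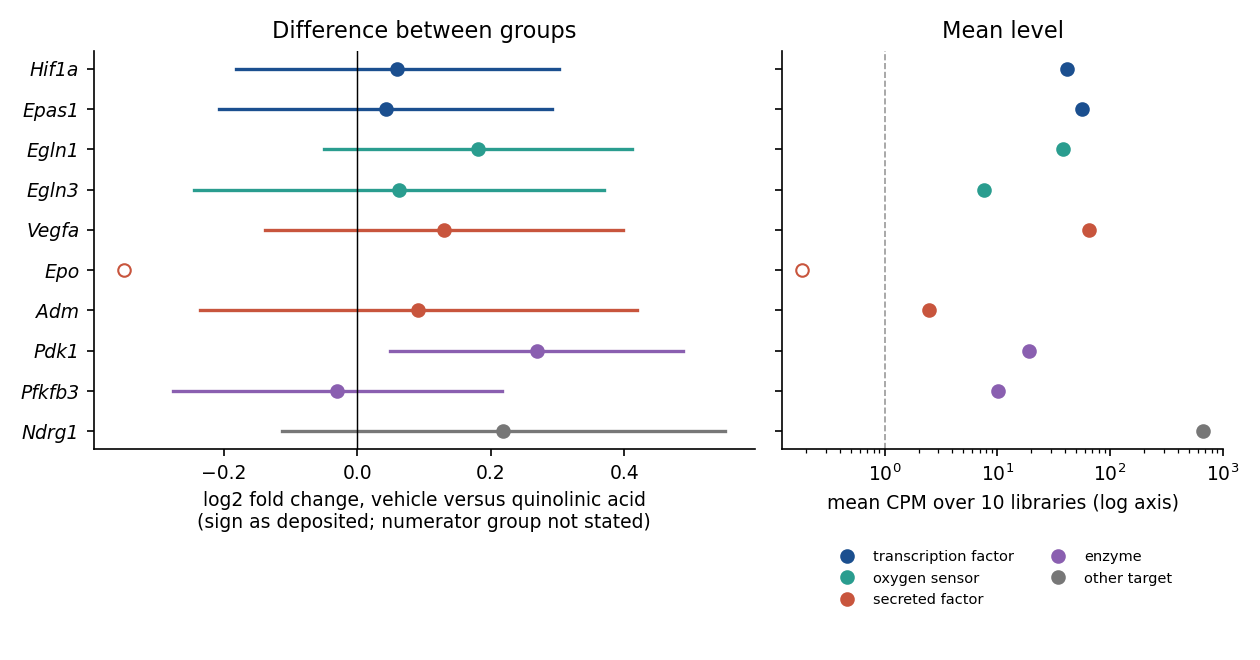
The left panel plots the deposited log2 fold change of each member with its approximate 95% interval, and the right panel its mean CPM over the 10 libraries on a log axis with a dashed line at 1 CPM. Open circles mark Epo, which lies under 1 CPM and has no interval drawn; of the 9 intervals drawn, that of Pdk1 alone excludes 0.

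The alpha subunits Hif1a and Epas1 showed the values closest to 0 together with Egln3 and Pfkfb3. Hif1a encodes HIF-1alpha, and in kidney this subunit is known mainly from tubule cells. Its row (chromosome 12, 73907904 to 73947530, mm10) stood at 41.7 CPM with a log2 fold change of 0.06 (95% interval -0.18 to 0.30) and p = 0.627 in the authors' deposited table. Epas1 encodes HIF-2alpha, known from endothelial and interstitial cells of the kidney and as the subunit that drives erythropoietin. In the authors' deposited table Epas1 (chromosome 17, 86753700 to 86833410) had 56.4 CPM, a log2 fold change of 0.04 (-0.21 to 0.29) and p = 0.738. Both intervals exclude fold differences above 1.23 in either direction.

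Of the oxygen sensors, Egln1 lay further from 0 than Egln3. Egln1 encodes PHD2, the main prolyl hydroxylase that restrains the factors in normal oxygen, and is itself a target of them. Egln1 (chromosome 8, 124908587 to 124949324) had 38.5 CPM and a log2 fold change of 0.18 (-0.05 to 0.41), with p = 0.124 and adjusted p = 0.794, according to the authors' deposited table. Egln3 encodes PHD3, a hydroxylase that hypoxia induces strongly in many cells. Its row (chromosome 12, 54178981 to 54203860) had 7.65 CPM and a log2 fold change of 0.06 (-0.25 to 0.37), p = 0.691, in the authors' deposited table. The interval of each gene included the value of the other, and the difference between them was not tested.

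The factors bind DNA at a short core, ACGTG or GCGTG. These letters were searched on both strands in windows of 300 bases, 250 before to 50 after a gene's start, taken from RefSeq on GRCm38.p6, and overlapping matches were counted each. Of 32851 windows, 43.8% held a match, and 8.93% held 3 or more. For 8 of the 10 genes a window was found, 11 windows in all, of which 9 held a match. G and C made up at least 54.7% of the bases in each of these 9, against a median of 52.7% over all windows. Whether matches were more frequent than in windows of like base content was not tested. The Vegfa window at the start of its row held no match, and its matches came from a window further along the gene. The promoter of Egln1 is shown because this gene had the second smallest p of the 10. It spans chr8:124949205-124949504 on the minus strand and holds 2 matches, 1 of each core. Capitals mark the matches.

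Egln1 promoter: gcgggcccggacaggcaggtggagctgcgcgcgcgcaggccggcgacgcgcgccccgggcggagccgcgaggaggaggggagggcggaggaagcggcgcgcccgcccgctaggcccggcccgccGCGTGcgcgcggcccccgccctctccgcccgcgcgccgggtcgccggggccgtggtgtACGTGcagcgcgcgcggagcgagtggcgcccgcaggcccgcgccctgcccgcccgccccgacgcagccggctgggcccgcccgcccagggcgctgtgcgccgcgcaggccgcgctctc

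The secreted factors spanned the widest range of levels. Vegfa encodes the vascular endothelial growth factor that podocytes and tubule cells supply to the kidney's capillaries. Vegfa (chromosome 17, 46016993 to 46032369) had 65.6 CPM and a log2 fold change of 0.13 (-0.14 to 0.40), with p = 0.342, in the authors' deposited table. Adm encodes adrenomedullin, a vasodilator peptide. Adm (chromosome 7, 110627661 to 110629820) was lower, at 2.46 CPM, with a log2 fold change of 0.09 (-0.24 to 0.42) and p = 0.584 in the authors' deposited table. Both intervals included 0, and reached fold differences of 1.32 for Vegfa and 1.34 for Adm.

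Epo, the gene of erythropoietin, was the 1 member under 1 CPM, and its value did not come from a row of the usual transcript. The row of highest level, Epo-202, stood at 0.186 CPM with a log2 fold change of -0.35, p = 0.205 and adjusted p = 0.794 in the authors' deposited table. Both other rows, Epo-201 and Epo-203, start at the gene's own first exon. Each had 0.0274 CPM and a log2 fold change of 0.00014 in the authors' deposited table, and 11.4% of all rows lay below that level. The lowest level in the whole table was 0.0201 CPM, so Epo-201 and Epo-203 lay near its floor.

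The annotated structures differ mainly at the start. In vM21, Epo-202 has 6 exons against 5 for Epo-201, and its extra first exon lies 47.3 kb upstream (chromosome 5, 137533139 to 137533242, minus strand). All 104 bases of this exon lie within the first exon of Gnb2, a G protein beta subunit gene on the same strand, and 6 transcripts of Gnb2 overlap it. Gnb2 was plentiful, at 102 CPM, with a log2 fold change of 0.22 (-0.05 to 0.50) and p = 0.113 in the authors' deposited table. The exon is common to both genes, and its part in the Epo-202 value was not tested. The rows of the usual Epo transcripts were too low to show a difference, and at this level none was detectable.

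**Figure D2:**
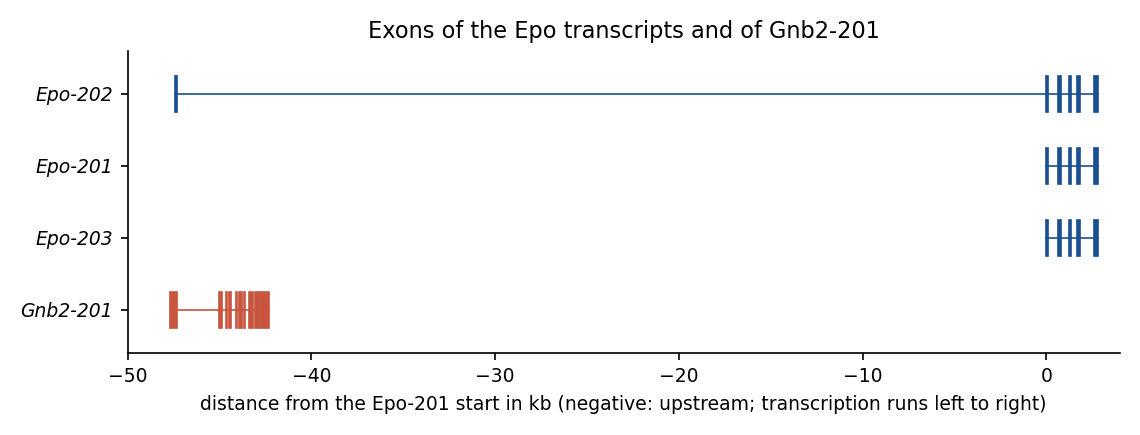
Boxes are exons of 3 Epo transcripts and of a Gnb2 transcript in GENCODE vM21, placed by distance in kb from the usual Epo start, with transcription from left to right. The first exon of Epo-202, at 47.3 kb upstream, falls on the first exon of Gnb2, while 4 of its other exons are identical to those of Epo-201.

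The window at the gene's own start is printed because it lies far from the start of the row that represents Epo here. It spans chr5:137485767-137486066 on the minus strand and holds 3 matches to GCGTG, 1 on the printed strand and 2 on the other. The latter 2 appear as CACGC in the printed letters. The known hypoxia response enhancer of this gene lies outside the promoter.

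Epo promoter: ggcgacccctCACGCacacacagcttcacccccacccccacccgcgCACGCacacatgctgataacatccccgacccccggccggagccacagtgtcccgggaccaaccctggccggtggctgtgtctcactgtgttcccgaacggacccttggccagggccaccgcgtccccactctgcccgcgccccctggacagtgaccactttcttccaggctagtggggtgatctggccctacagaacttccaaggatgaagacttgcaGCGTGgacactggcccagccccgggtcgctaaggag

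Of the enzymes, Pdk1 had the smallest p of all 10 genes. Pdk1 encodes pyruvate dehydrogenase kinase 1, which keeps pyruvate out of the mitochondrial citric acid cycle and is a classic target of HIF-1. Pdk1 (chromosome 2, 71873224 to 71903858) had 19.2 CPM and a log2 fold change of 0.27 (0.05 to 0.49), a fold of 1.20, with p = 0.0163 in the authors' deposited table. Its adjusted p there was 0.781, so Pdk1 did not pass, and it ranked 523 by p among all genes. Pfkfb3 makes fructose 2,6-bisphosphate, an activator of glycolysis. Pfkfb3 (chromosome 2, 11471433 to 11554077) had 10.2 CPM and a log2 fold change of -0.03 (-0.28 to 0.22), with p = 0.815, in the authors' deposited table.

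The Pdk1 promoter is shown because this gene alone passed the unadjusted threshold. The window spans chr2:71872974-71873273 on the plus strand and holds 2 matches, both GCGTG on the printed strand. A second Pdk1 window in the RefSeq table, further along the gene, held no match.

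Pdk1 promoter: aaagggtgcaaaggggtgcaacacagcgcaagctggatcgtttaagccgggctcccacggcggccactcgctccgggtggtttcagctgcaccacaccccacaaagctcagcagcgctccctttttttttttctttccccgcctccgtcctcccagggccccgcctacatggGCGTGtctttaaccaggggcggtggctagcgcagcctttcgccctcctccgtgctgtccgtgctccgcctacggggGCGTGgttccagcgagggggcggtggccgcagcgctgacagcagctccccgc

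Ndrg1, a stress-responsive gene widely used as a marker of hypoxia, was the most abundant member. Ndrg1 (chromosome 15, 66929318 to 66969640) had 668 CPM, above 99.7% of genes of at least 1 CPM, with a log2 fold change of 0.22 (-0.11 to 0.55) and p = 0.196 in the authors' deposited table. Its interval was the widest of the 9. Per kilobase of transcript Ndrg1 also led, at 231 CPM per kb. Vegfa followed with 19.0 CPM per kb, then Egln1 with 10.7, Epas1 with 10.2 and Hif1a with 8.83 CPM per kb. Pdk1 had 3.70, Egln3 2.87, Pfkfb3 2.12, Adm 1.77 and Epo 0.217 CPM per kb. Egln1, Epas1 and Hif1a lay close together in this order, and without values per mouse no neighbours can be separated by their spread.

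The rows of a gene did not all give the same value. Of the 10 genes in the authors' deposited table, 7 had more than 1 row, from 2 for Adm to 21 for Pfkfb3, and Epas1, Egln1 and Egln3 had 1 each. Over the 66 rows, 28 had a positive sign, 2 had an unadjusted p under 0.05 (3.03%, against 6.08% of all rows), and none was called. Both of the rows with a small p were of Pdk1. Rows of a gene share reads, so they are not independent measurements.

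Rows with and without the long last exon of a gene differed in their median values, and their ranges overlapped only in Vegfa. In Pdk1, 2 rows hold at least 50% of the last exon of 3875 nt, and they had 12.8 and 19.2 CPM with log2 fold changes of 0.23 and 0.27 in the authors' deposited table. The other 6 rows of Pdk1 had 0.608 to 1.34 CPM and log2 fold changes of -0.03 to 0.06 in the authors' deposited table. In Pfkfb3, 5 rows with the last exon had 9.90 to 10.2 CPM and log2 fold changes of about -0.03, while 16 rows without it had 0.111 to 2.69 CPM and values of -0.77 to -0.23 in the authors' deposited table. All 21 rows of Pfkfb3 had a negative sign. The smallest p among them was 0.0578, for a row of 0.253 CPM, in the authors' deposited table.

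Hif1a rows were separated in the same way, and those of Ndrg1 and Vegfa less clearly. The 2 Hif1a rows with the last exon stood at 0.06 on the log2 fold scale and 41.7 CPM each, and the 3 without it had -0.30 to -0.15 at 1.11 to 2.14 CPM in the authors' deposited table. For Ndrg1 the 1 row with the last exon had 0.22, against -0.10 to 0.21 in 12 other rows of 15.9 to 57.2 CPM in the authors' deposited table. The 2 Vegfa rows with the last exon had 0.13 and 0.16, and the 9 without it -0.02 to 0.13 in the authors' deposited table, where Vegfa-211, without it, stood at 64.2 CPM and 0.13. In all 6 members with both kinds of row, the median log2 fold change was higher in the rows with the last exon, by 0.12 to 0.33. The same held for 84.9% of 8306 genes of at least 1 CPM that have both kinds, with a median difference of 0.12, so the arrangement is not particular to these genes.

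**Figure D3:**
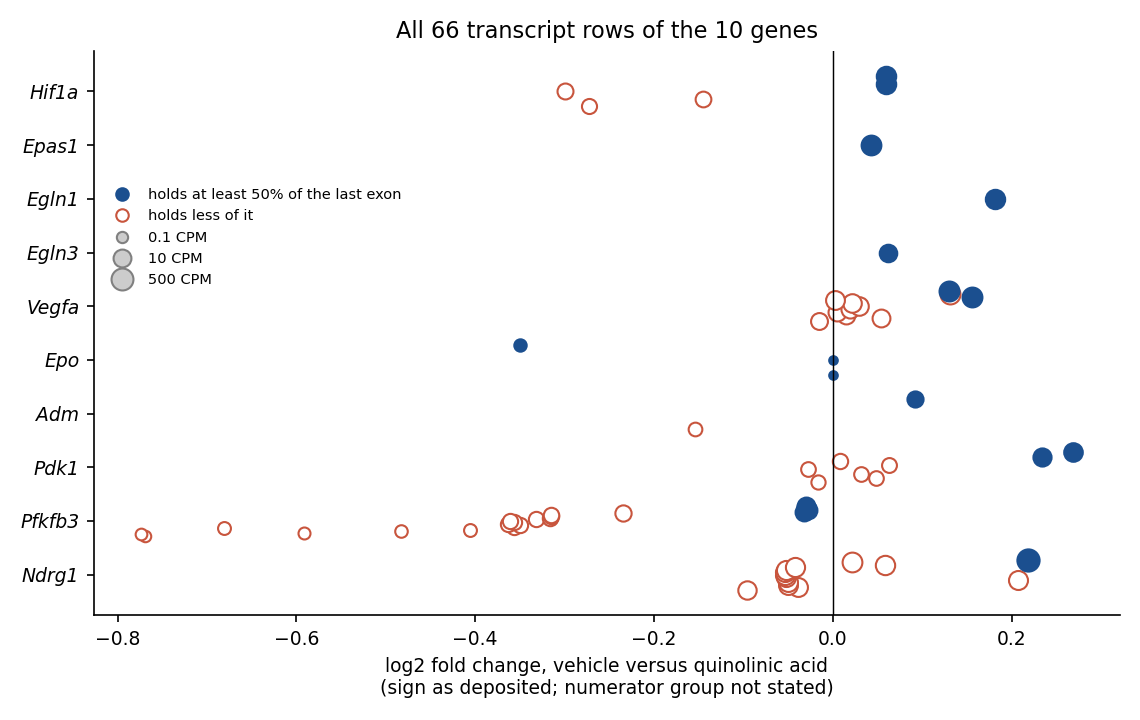
Each circle is 1 of the 66 transcript rows, placed by its deposited log2 fold change, with an area that grows with its mean CPM on a log scale. Filled circles hold at least 50% of the last exon of the gene's most abundant row and lie to the right of most open circles of the same gene, as in Pfkfb3 (about -0.03 against -0.77 to -0.23).

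The fold change of all genes moved with transcript length, and the members were read against this trend. Length and log2 fold change gave a Spearman's rho of -0.51 over the 13115 genes at or above 1 CPM, which do not count as replicates. By length class, the median log2 fold change was 0.15 for 2620 genes of 1000 to 2000 nt and 0.02 for 2707 genes of 4000 to 6000 nt, where 4 of the members lie. A loess trend on length and mean level gave 0.01 for Pdk1 (5185 nt), so that 0.26 (0.04 to 0.48) of its log2 fold change remained. The unadjusted p of this remainder was 0.0204, and 1.97% of genes fell under 0.05 on that scale. Its adjusted p over these genes was 1.00. For Ndrg1 the remainder was 0.15 (-0.18 to 0.48), and for Egln1 it was 0.12 (-0.11 to 0.36). Hif1a and Epas1 each kept 0.04, and Adm and Egln3, which the trend placed at 0.15 and 0.09, changed sign to -0.06 and -0.03.

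**Figure D4:**
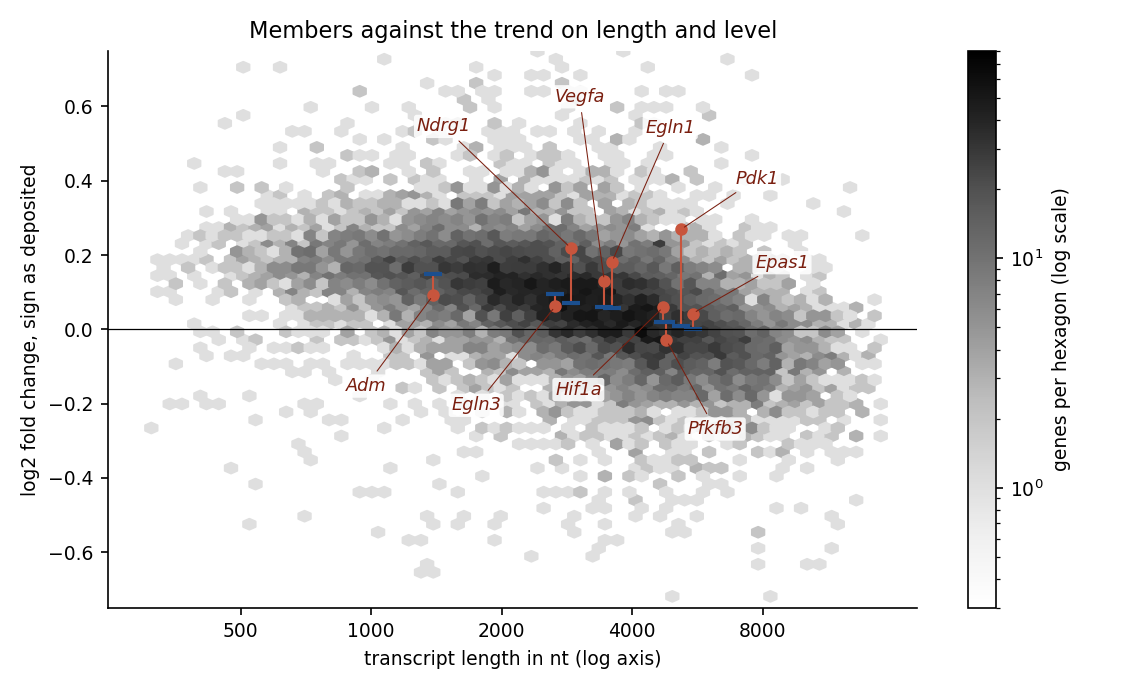
Grey hexagons count genes of at least 1 CPM by transcript length in nt (log axis) and deposited log2 fold change; a few genes beyond the axes are not drawn. Red circles are the 9 members of at least 1 CPM, and blue bars show the loess trend at their length and level; the longest red line belongs to Pdk1, 0.26 above its trend.

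Other parts of the sensing machinery were also measured. Counts of deposited signs in this list and in those below stand beside 71.8% positive among all genes of at least 1 CPM. That share does not apply to signs after trend removal, for which no share over all genes was computed. Among 17 further subunits, hydroxylases and regulators in the authors' deposited table, 12 signs were positive and 5 negative, the median was 0.12, and no gene was called or fell under an unadjusted p of 0.05. First by p was Cited4, a competitor for the coactivator p300, with 0.42 (-0.03 to 0.86) at 1.02 CPM, then Elob, a subunit of the von Hippel-Lindau ubiquitin ligase, with 0.22 (-0.10 to 0.53), and Ep300, the coactivator itself, with -0.16 (-0.40 to 0.08) in the authors' deposited table. Removing the trend gave a median of -0.01, and 7 positive signs among 16 fitted genes.

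Receptors for the secreted factors were also not called. The 11 genes comprised 8 positive and 3 negative signs and had a median of 0.16 in the authors' deposited table, against 0.08 for genes of at least 1 CPM. After trend removal the receptors had a median of 0.07, with 8 of 11 positive in sign. The erythropoietin receptor gene Epor had 0.34 (-0.04 to 0.72) at 1.29 CPM and p = 0.0790 in the authors' deposited table. Ramp3 and Ramp2, which turn the receptor encoded by Calcrl into adrenomedullin receptors, had 0.25 (-0.08 to 0.57) and 0.16 (-0.08 to 0.41) in the authors' deposited table. The row of Ramp3 is annotated as a processed transcript and that of Ramp2 as subject to nonsense-mediated decay.

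Targets beyond the members were examined in lists of glycolytic and of other targets. The 19 glycolytic genes comprised 16 positive and 3 negative signs around a median of 0.11, and none was called or reached an unadjusted p under 0.05 in the authors' deposited table. Those with the smallest p were the enolase gene Eno1, with 0.24 (-0.05 to 0.53), the platelet-type phosphofructokinase gene Pfkp, with -0.25 (-0.55 to 0.05), and the lactate dehydrogenase gene Ldha, with 0.20 (-0.11 to 0.51) in the authors' deposited table. With length and level taken into account the median of this list was 0.01, and 10 of the 19 genes were positive. The 34 other targets comprised 26 positive and 8 negative signs around a median of 0.09, and none was called in the authors' deposited table. Trend removal gave this list a median of 0.04 over 32 fitted genes. Of these, 22 were then positive and 2 lay under an unadjusted 0.05, against 1.97% of all genes fitted.

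In that list 1 gene of each sign, 2 of 34, had an unadjusted p under 0.05, a share close to the 5.12% of all genes. Bhlhe41 encodes DEC2, a repressor that also acts in the circadian clock, and had 0.57 (0.16 to 0.99) at 3.40 CPM with p = 0.00651 and adjusted p = 0.671 in the authors' deposited table. Angpt2, the gene of the vessel-destabilising factor angiopoietin-2, had -0.48 (-0.90 to -0.06) at 4.05 CPM with p = 0.0252 and adjusted p = 0.792 in the authors' deposited table. Higd1a, a mitochondrial protein gene induced by hypoxia, followed with 0.23 (-0.01 to 0.48) in the authors' deposited table.

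Relatives of the members by gene family were also examined. Egln2, Hif3a, Pdk3 and Pfkfb4 among them were already counted in the sensing or glycolytic lists above, so the lists are not independent. Of 15 relatives, 13 were positive in sign, 3 of them with an unadjusted p under 0.05 (against 3.58% of all genes), and none was called in the authors' deposited table. The median was 0.18, and 0.05 over the 12 genes fitted once the trend was removed. Of those 12 genes, 8 were then positive and 2 lay under an unadjusted 0.05, against 1.97% of all genes fitted. Ndrg4, best known from nervous tissue and heart, had 1.03 (0.40 to 1.65) at 1.87 CPM, with p = 0.00134 and adjusted p = 0.455 in the authors' deposited table. Vegfc, a lymphatic growth factor gene, had 0.47 (0.14 to 0.80) at 1.66 CPM, and Vegfb had 0.31 (0.04 to 0.58) at 14.8 CPM, with adjusted p of 0.665 and 0.792 in the authors' deposited table. Whether any relative differed from its member was not tested.

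**Figure D5:**
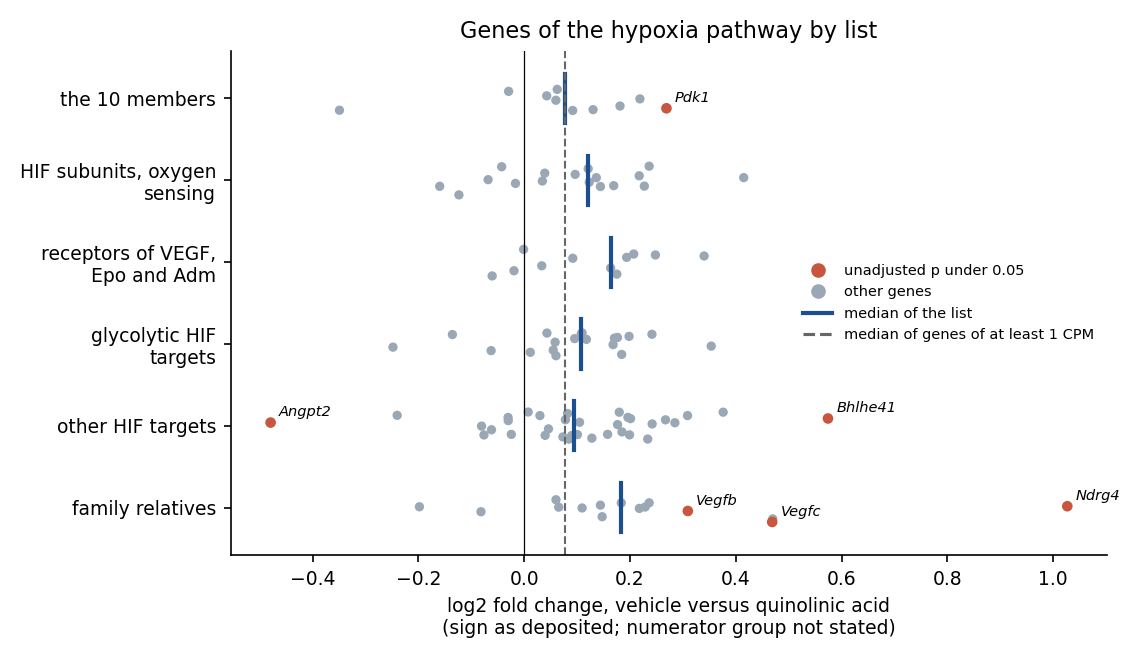
Points are genes placed by deposited log2 fold change, in 6 rows for the members and the 5 lists, with a vertical jitter only to separate them. Red points have an unadjusted p under 0.05, blue bars are list medians (0.08 to 0.18), and the dashed line is the median of genes of at least 1 CPM, 0.08.

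The labelled tissue was checked against kidney markers. All 8 proximal tubule markers were at 30.5 CPM or more, and every marker of distal tubule, collecting duct, podocyte, endothelium and interstitium was above 1 CPM in the authors' deposited table. The 8 markers of interstitial fibroblasts and pericytes, the cells that make erythropoietin, summed to 471 CPM, with 3 positive and 5 negative signs and a median of -0.03 in the authors' deposited table. The 7 endothelial markers were each positive in sign (median 0.11) and summed to 122 CPM. All 6 collecting duct markers (median 0.16) and all 5 podocyte markers (0.10) were positive too. Proximal tubule markers had 6 positive and 2 negative signs, and those of thick ascending limb and distal tubule 3 and 2. Leukocyte markers (7 of 7 positive, median 0.21) and erythroid markers (6 of 6, 0.18) summed to 91.0 and 80.3 CPM. Among all genes of at least 1 CPM, 71.8% were positive. The endothelial marker Kdr is also among the receptors above, and Slc4a1 is both a collecting duct and an erythroid marker.

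Markers of adipocytes, hepatocytes and urothelium had larger median values, and the source of these transcripts was not tested. In the adipocyte, hepatocyte and urothelial lists all 6 markers were positive, and the medians were 3.63, 1.13 and 0.77 in the authors' deposited table. They summed to 23.6, 98.8 and 4.79 CPM, and only 2, 4 and 1 of them reached 1 CPM. Sums and medians reflect different genes. Fabp4, through a row annotated as a retained intron, made up 21.7 of the adipocyte CPM with a log2 fold change of 0.19 in the authors' deposited table. Ttr and Serpina1a, at 60.9 and 26.9 CPM, held most of the hepatocyte sum with 0.45 and 0.14 there. Their part in the values of Pdk1 and of the other members was not tested.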

How the data were processed

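RNA was measured by sequencing in whole kidney of 5 mice given quinolinic acid and 5 given vehicle, grouped by their titles. Build mm10 and the tools STAR 2.5.3a, featureCounts (Subread 1.4.6), edgeR and FastQC 0.11.2 are named in the submitters' processing notes. Annotation release, filters and strand setting are not given in the sources used here. The authors deposited, per the file headers, 5 columns per transcript: the log2 fold change, log2 CPM averaged over libraries, the likelihood ratio (a score on 1 degree of freedom), the p-value and the adjusted p. All were used as they stand. Recomputed from the score by a chi-square distribution, each p-value matched the deposited one, and Benjamini-Hochberg adjustment over 85107 rows gave the adjusted p.

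Row identifiers without version were matched to GENCODE vM21 (98.0% matched, and 19 of the 66 member rows had the same version), so exon structures may differ from those counted. Standard errors were taken as the absolute log2 fold change over the square root of the likelihood ratio. Loess (span 0.5, R 4.3.3) gave the trend on length and level, tested on simulated data. Tables used Python 3.11.15, numpy 2.4.6, pandas 2.3.3 and scipy 1.17.1, and plots matplotlib 3.10.9. Members and lists were chosen with earlier results of these data known. From each further list the 3 genes with the smallest p were named. P-values set each difference between groups against the spread in the authors' fit, which is not among the deposited columns. Values per library, and hence their depth, were not analysed here, and no likeness of genes across samples could be measured.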

Additional observations from a re-analysis of the deposited data

How the results depend on the processing

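The count of called members was also 0 with p-values adjusted again over rows of at least 1 CPM, over 1 row per gene and over coding transcripts. It was 0 after removal of the length and level trend as well. These were weak checks, because the smallest p of a member was 0.0163 and only 5.12% of genes fell under 0.05. With the trend removed the corresponding values were 0.0204 and 1.97%. So few small p-values left the adjustment little room to call a member. Adjusted p thresholds of 0.1 and 0.01 gave 0 too, but with a smallest adjusted p of 0.781 they could give nothing else. At an unadjusted p under 0.05 the count of 1 member held with the trend removed. Of 51 alternative values of single members, 23 were the main row itself and tested nothing. Of the other 28, 21 kept their sign. Centred on the median gene of at least 1 CPM, Hif1a changed sign to -0.017, Epas1 to -0.034 and Egln3 to -0.014. With the trend removed, Egln3 came to -0.032, Adm to -0.057 and the median of the further subunits and sensing genes to -0.011. The rows Epo-201 and Epo-203, added after seeing the data, gave 0.00014 in place of -0.35.

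No paired analysis was possible because values per library were not analysed here, and for the same reason leaving out each library was not run. The deposited table shows neither depth nor single mice, and transcripts of a gene share reads.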
